A study of Mus musculus with 18 samples.

Results

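The 41 genes described here act in cell cycle entry and DNA replication: cyclins, cyclin-dependent kinases (CDKs) and their inhibitors, E2F and retinoblastoma family members, origin licensing factors, enzymes of DNA and nucleotide synthesis, and proliferation markers. They were chosen by name as rows of the deposited expression table, which held all 41 among its 15137 genes. RNA was sequenced from naive CD4+ T cells of C57BL/6J mice, sorted from spleen as CD3+CD4+CD25-CD62L+CD44- cells. The 18 libraries formed 6 groups of 3. Cells of conditional knockout (cKO) mice, in which Creld1 was deleted with CD4-Cre (Cre driven in T cells from the CD4 stage of thymic development on), were taken in 3 conditions: cultured for 8 h with anti-CD3 and anti-CD28 antibodies at 1 µg/ml (stimulated), cultured as long without them (unstimulated), or directly after isolation (fresh). Cells of control mice were profiled in the same 3 conditions. The labels do not say what the controls carry at the Creld1 or Cre loci. The mouse label was the same for the 3 libraries of a group and differed between the groups, so that mouse and group cannot be told apart, and p-values reflect nothing but the scatter of libraries within groups, possibly a technical one.

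A resting naive T cell stays outside the cell cycle, with abundant inhibitor of the cyclin E and CDK2 complex and an active retinoblastoma protein that holds E2F target genes silent. Signals through the T cell receptor and CD28 raise D-type cyclins, which with CDK4 and CDK6 phosphorylate the retinoblastoma proteins. Freed E2F then drives the genes for cyclin E, the MCM helicase that is loaded at replication origins, and the enzymes that make nucleotides and copy DNA.

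Levels are given as deposited, normalized and in log2 units. Summed over genes on the linear scale a library came to 6782465 to 7419367. Fresh libraries had the higher sums, 7192712 to 7419367, against 6782465 to 7127654 in cultured ones. These sums follow from the normalization, the read depth is unknown, and a level is relative to the other genes of its library. Creld1 itself averaged 4.38 ± 0.24 in stimulated cKO and 4.74 ± 0.34 in stimulated control cells, 4.03 ± 0.27 in unstimulated cKO and 5.03 ± 0.32 in unstimulated control cells, and 4.10 ± 0.36 in fresh cKO and 4.58 ± 0.26 in fresh control cells (SD, n = 3 each). Its limma adjusted p over all genes was 0.974, 0.103 and 0.79 in these 3 conditions, so its lower means in cKO cells did not pass the test. Of the naive CD4+ T cell markers all 7 with a value reached the minimum level of the test (10 on the linear scale, reached in 3 libraries), against 1 of 4 for CD8 T and NK cells (Cd8b1), 1 of 3 for B cells (Cd79a), 1 of 3 for myeloid cells (Itgam) and 0 of 2 for red cells. So did 2 of 5 markers of memory or effector T cells (Cd44 and Ly6c2) and 2 of 2 of regulatory T cells (Foxp3 and Ikzf2). Libraries differed in how their values ran with the GC content of the transcripts. The slope, in log2 units per SD of GC content, was -0.19, -0.31 and 0.16 in the 3 fresh cKO libraries, so that replicate 3 stood apart there, and in unstimulated culture it was -0.19 to -0.07 in cKO and 0.06 to 0.24 in control libraries.

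Of the 41 genes 39 reached the minimum level and were tested among 10877 genes. Ccna2 (cyclin A2, which acts in S phase) reached it in 2 libraries and Cdk1 (the mitotic kinase) in 0, with log2 values of 2.53 to 3.41 and 1.63 to 2.27 over the 18 libraries. Per kilobase of the longest transcript, on the assumption that the deposited values are not already scaled by length, the mean log2 level in fresh control cells was 10.09 for Pcna, 9.37 for Cdkn1b, 8.67 for Ccnd2, 8.35 for Ccnd3 and 8.31 for E2f4. Ccnd3 and E2f4 lay closer together than the spread of E2f4 between libraries (SD 0.29, n = 3). The lowest levels per kilobase were 1.35 for Ccna2, 1.24 for Cdc6 and -0.05 for Cdk1. The top of this order thus held the replication clamp (Pcna), the CDK inhibitor p27 (Cdkn1b) and D-type cyclins, and the bottom cyclin A2, the mitotic kinase and the licensing factor Cdc6.

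**Figure D1:**
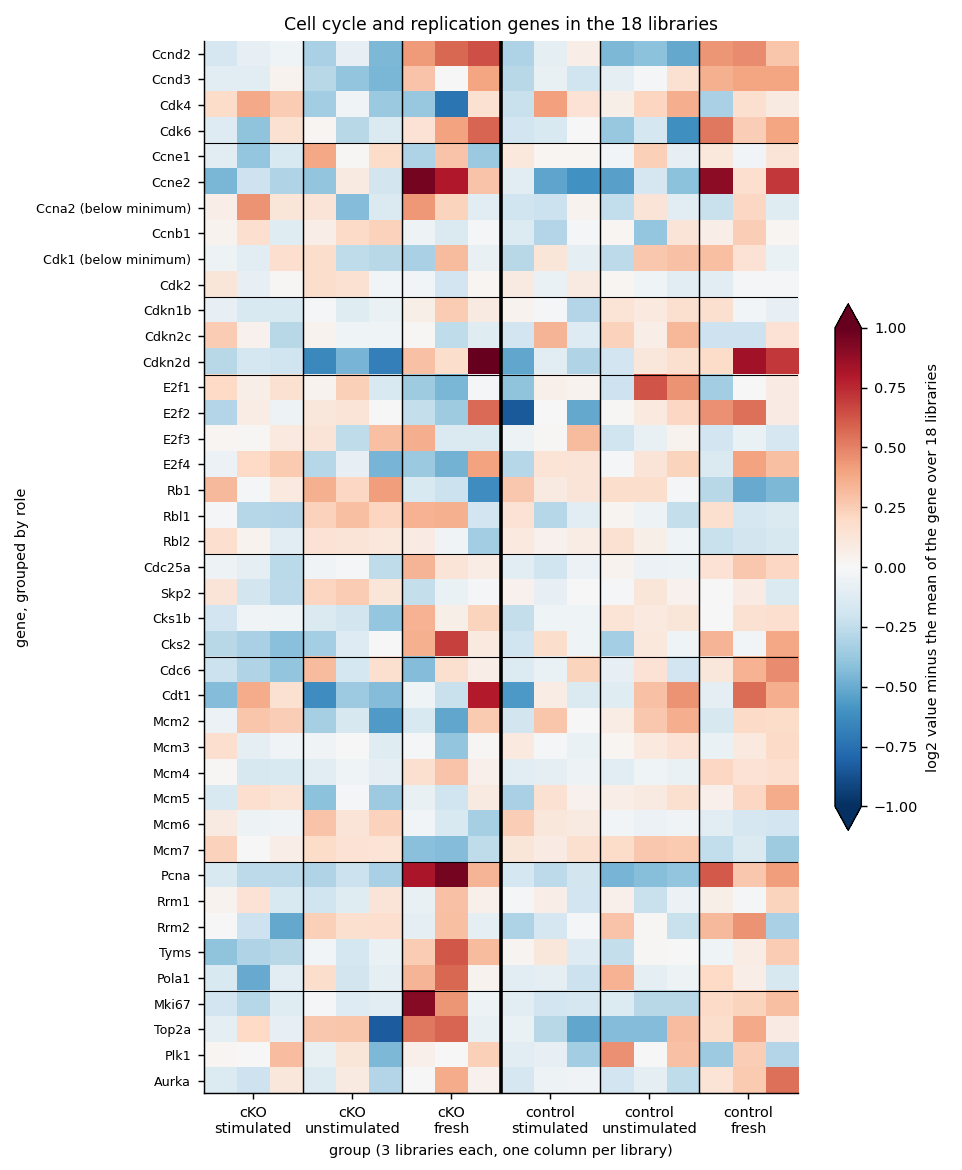
Log2 value of each of the 41 genes minus its mean over 18 libraries (colour), by gene in role order (rows) and library (columns, grouped by genotype and condition). Pcna, Ccnd2 and Ccne2 are red in all 6 fresh libraries and Rb1 and Mcm7 blue; cultured libraries have the opposite colour, except stimulated control replicate 3 for Ccnd2, unstimulated cKO replicate 2 for Ccne2, stimulated cKO replicate 2 for Rb1 and Mcm7, and unstimulated control replicate 3 for Rb1, which lie just across the mean.

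More of these genes passed the test between cultured and fresh cells than between genotypes or by stimulation. In unstimulated cKO cells 3 genes rose (Rb1, Mcm6, Mcm7) and 11 fell against fresh cKO cells, among them Pcna, Ccnd2, Ccne2 and Cdkn2d. In unstimulated control cells 2 rose (Rb1, Mcm7) and 8 fell. These were 14 of 39 genes in cKO, where 22.1% of all tested genes passed the threshold (10.7% higher and 11.4% lower), and 10 of 39 in control, where 29.0% passed (14.9% higher and 14.1% lower). The share that fell was 28.2% in cKO and 20.5% in control, and the share passing in either direction in control was below that of all genes. The median difference of the 39 genes was -0.20 in cKO and -0.07 in control, with -0.02 and 0.04 for all tested genes. At an unadjusted p under 0.05 there were 19 members in cKO, where 34.0% of all genes were, and 13 in control, where 4465 of all 10877 genes were.

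The same 9 genes passed in both genotypes in the same direction, 64.3% of the cKO calls and 90.0% of the control calls: Rb1 and Mcm7 higher, and Ccnd2, Ccnd3, Cdk6, Ccne2, Mcm4, Pcna and Mki67 lower. The share of all tested genes that passed in both genotypes was not counted, so whether these genes exceed it is not known. The genotypes shared no library here. Over the 39 genes their culture differences had a Pearson r of 0.75, with 0.74 over all tested genes, and 27 had the same sign. In bulk RNA, fewer cells with a transcript and less of it per cell cannot be told apart.

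**Figure D2:**
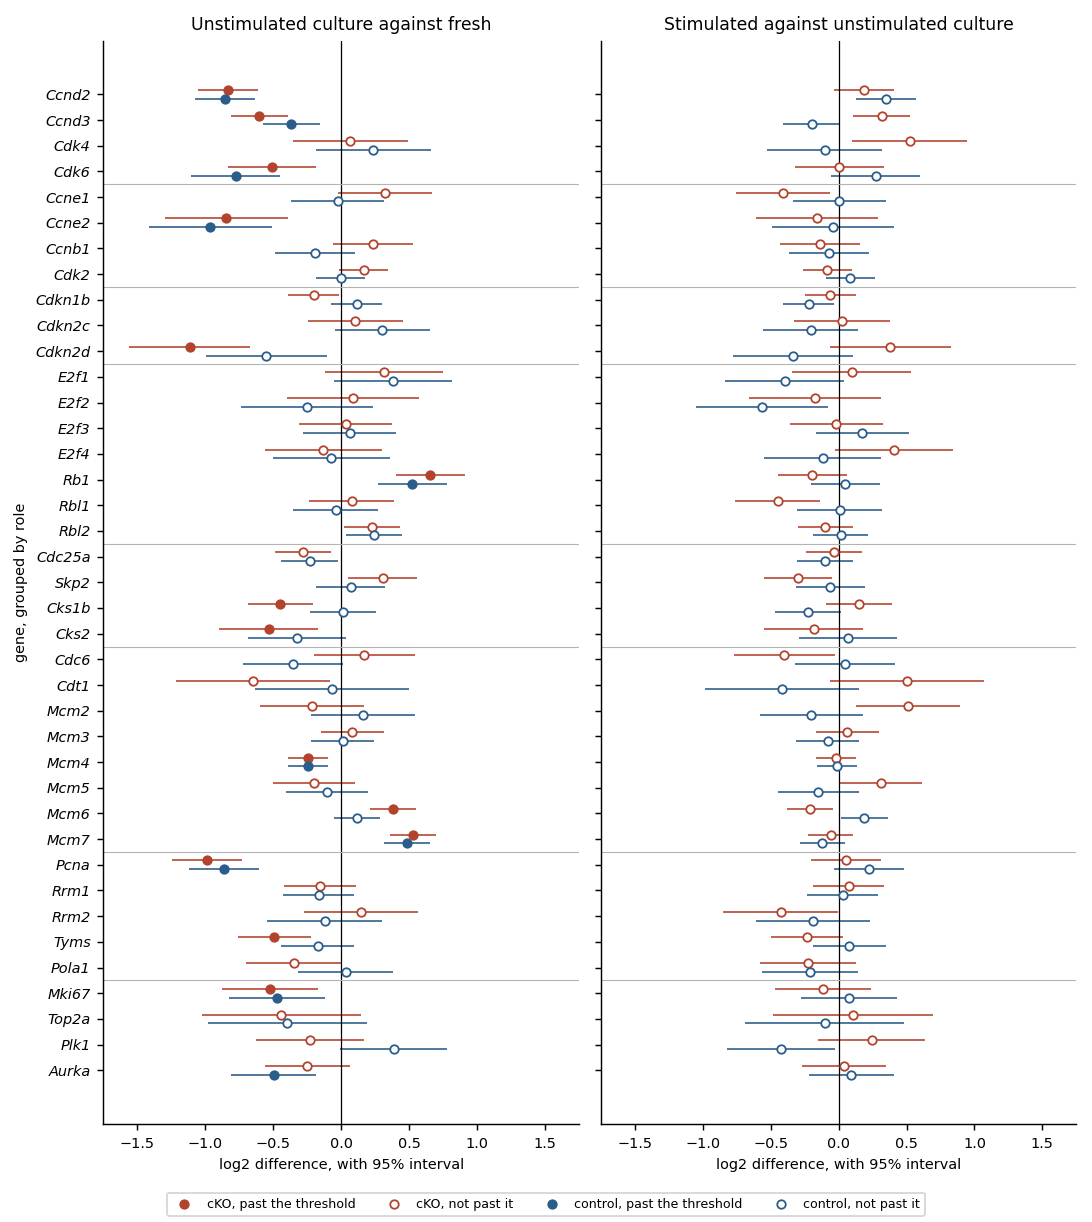
Log2 difference with its 95% interval for each of 39 genes, in unstimulated culture against fresh cells (left) and in stimulated against unstimulated culture (right), for cKO (red) and control (blue). Filled points passed the adjusted threshold of 0.05: 14 and 10 on the left, and 0 on the right.

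Among the D-type cyclins and their kinases, 3 of 4 fell in both genotypes. Of all tested genes 11.4% passed as lower in cKO and 14.1% in control, and the share lower in both was not counted. Ccnd2 encodes cyclin D2, the partner of CDK4 and CDK6 in early G1 (chromosome 6, 127125162 to 127152193, minus strand, GRCm38). It had log2 values of 10.61, 10.85 and 10.48 in unstimulated cKO cells, against 11.35, 11.51 and 11.57 in fresh cKO cells. In control cells the values were 10.48, 10.52 and 10.42 unstimulated, against 11.37, 11.40 and 11.21 fresh. All fresh libraries lay above all unstimulated ones (31.9% of all tested genes in cKO and 48.6% in control did not overlap), and Ccnd2 fell by 0.83 in cKO and by 0.86 in control (SE 0.10 each, limma adjusted p = 3.98e-05 and 2.67e-05). Cultured cells held 0.562 and 0.553 times the fresh level. Ccnd3, for cyclin D3, which T cells need in the thymus, had 9.63, 9.51 and 9.45 in unstimulated cKO against 10.19, 9.90 and 10.31 in fresh cKO cells, and fell by 0.60 (adjusted p = 0.000415). In control cells it fell by 0.37, to 9.92 ± 0.13 against 10.29 ± 0.02 in fresh cells (SD, n = 3, limma adjusted p = 0.0115), a call that was lost without unstimulated control replicate 1 (-0.31, adjusted p = 0.0516).

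Cdk6 fell by 0.51 in cKO (adjusted p = 0.0252) and by 0.78 in control (adjusted p = 0.00157). It averaged 7.34 ± 0.15 in unstimulated and 7.85 ± 0.22 in fresh cKO cells, and 7.08 ± 0.22 in unstimulated and 7.86 ± 0.14 in fresh control cells (SD, n = 3). Fresh and unstimulated libraries did not overlap in either genotype (nor did 31.9% of all tested genes in cKO and 48.6% in control). The cKO call was lost without fresh replicate 2 or 3 or unstimulated replicate 2 or 3, with differences of -0.50 to -0.41 and adjusted p of 0.0598 to 0.1. Cdk4, its close relative, did not pass, with 8.75 ± 0.19 in unstimulated and 8.68 ± 0.44 in fresh cKO cells, and 9.21 ± 0.15 in unstimulated and 8.97 ± 0.26 in fresh control cells.

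Ccne2, for cyclin E2, which with CDK2 drives entry into S phase, was the 1 gene of its group that passed. It had 4.36, 4.85 and 4.57 in unstimulated cKO against 5.71, 5.55 and 5.04 in fresh cKO cells. Control cells had 4.21, 4.59 and 4.35 unstimulated against 5.65, 4.92 and 5.46 fresh. No unstimulated library reached the lowest fresh one (31.9% of all tested genes in cKO and 48.6% in control did not overlap). Ccne2 fell by 0.84 and 0.96 (limma adjusted p = 0.00918 and 0.00346). Ccne1, Ccnb1 and Cdk2 did not pass in either genotype. Cdk2, the partner of cyclin E, differed by 0.17 in cKO and by -0.0047 in control, with 9.02 ± 0.07 in unstimulated and 9.02 ± 0.06 in fresh control cells (SD, n = 3).

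Cdkn2d, for the CDK4 and CDK6 inhibitor p19, fell in cKO cells, with 6.62, 6.80 and 6.58 in unstimulated against 7.56, 7.44 and 8.35 in fresh cells. The difference was -1.11 (95% interval -1.56 to -0.67, adjusted p = 0.00124). In control cells the difference was -0.55 (-0.99 to -0.11) and did not pass, with 7.29 ± 0.19 in unstimulated and 7.85 ± 0.35 in fresh cells. Cdkn1b, for p27, the inhibitor that holds naive T cells at rest, had 11.47 ± 0.06 in unstimulated and 11.67 ± 0.10 in fresh cKO cells, and 11.67 ± 0.03 in unstimulated and 11.55 ± 0.12 in fresh control cells, and did not pass in either. Cdkn2c, for the inhibitor p18, was low throughout, at 4.23 to 4.85 over all libraries.

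Rb1, for the retinoblastoma protein that binds and silences E2F at its targets, rose in both genotypes (chromosome 14, 73183673 to 73325822, minus strand). It had 10.48, 10.33 and 10.54 in unstimulated cKO against 9.97, 9.91 and 9.50 in fresh cKO cells. Control cells had 10.30, 10.30 and 10.11 unstimulated against 9.85, 9.62 and 9.67 fresh. Every unstimulated library lay above every fresh one (31.9% of all tested genes in cKO and 48.6% in control did not overlap). The rises were 0.66 in cKO and 0.52 in control (SE 0.12 each, adjusted p = 0.00101 and 0.00456). Of its relatives, Rbl2 (p130, which serves in quiescent cells) differed by 0.23 in cKO and 0.24 in control, and neither passed. Rbl1 (p107) averaged 9.79 ± 0.05 in unstimulated and 9.71 ± 0.31 in fresh cKO cells, and 9.45 ± 0.14 in unstimulated and 9.49 ± 0.18 in fresh control cells. No E2F gene passed: E2f1, an activator of S phase genes, differed by 0.31 in cKO and 0.38 in control, and E2f4, a repressor in resting cells, had 8.84 ± 0.19 in unstimulated and 8.97 ± 0.48 in fresh cKO cells.

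Among the 4 genes of CDK activation and turnover, 2 fell in cKO and 0 in control, where 11.4% and 14.1% of all tested genes did. Cks1b and Cks2, small subunits that bind CDKs, fell in cKO by 0.45 (adjusted p = 0.0101) and 0.53 (adjusted p = 0.0342). Cks1b averaged 3.44 ± 0.13 in unstimulated and 3.88 ± 0.14 in fresh cKO cells, against a level of 3.80 ± 0.02 in unstimulated and 3.78 ± 0.09 in fresh control cells. Cks2 averaged 4.70 ± 0.17 in unstimulated and 5.23 ± 0.29 in fresh cKO cells, and its difference in control was -0.32, which did not pass. The Cks1b call was lost without unstimulated cKO replicate 3 (-0.37, adjusted p = 0.0538). The Cks2 call was lost without fresh cKO replicate 1 or 2 or unstimulated cKO replicate 1 or 2 (-0.55 to -0.38, adjusted p 0.0715 to 0.144). Cdc25a, the phosphatase that activates CDK2, differed by -0.28 in cKO and -0.23 in control, and did not pass, nor did Skp2, a ubiquitin ligase subunit that acts on p27, at 0.30 and 0.07.

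The origin licensing genes moved in both directions. Mcm7 and Mcm6, subunits of the MCM helicase, rose while Mcm4, another subunit of the same ring, fell. Promoters of 3 MCM genes are shown because the best known motif of replication genes, that of E2F, is found in them. Of these genes Mcm7 and Mcm6 rose and Mcm5 did not pass, and Mcm4, which fell, had no promoter in the RefSeq table. The Mcm2 promoter held no such motif, and that of Mcm3 held it only after the start of the gene. The letters run 5′ to 3′ on the gene's strand over the 250 bases before its RefSeq start (build GRCm38.p6), and capitals mark a match to TTTGGCGC, TTTGCCGC, TTTCGCGC or TTTCCCGC on either strand.
Mcm7, chr5:138171884-138172133, minus strand: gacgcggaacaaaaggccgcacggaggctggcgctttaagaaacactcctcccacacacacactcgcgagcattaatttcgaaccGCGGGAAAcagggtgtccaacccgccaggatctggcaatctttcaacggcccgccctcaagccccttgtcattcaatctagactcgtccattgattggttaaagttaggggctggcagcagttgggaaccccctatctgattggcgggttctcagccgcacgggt
Mcm6, chr1:128359706-128359955, minus strand: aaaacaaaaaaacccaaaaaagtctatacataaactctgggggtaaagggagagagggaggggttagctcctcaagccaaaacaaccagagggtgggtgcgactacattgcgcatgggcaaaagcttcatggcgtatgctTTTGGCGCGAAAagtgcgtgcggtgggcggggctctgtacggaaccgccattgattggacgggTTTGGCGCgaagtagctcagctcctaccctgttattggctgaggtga
Mcm5, chr8:75109259-75109508, plus strand: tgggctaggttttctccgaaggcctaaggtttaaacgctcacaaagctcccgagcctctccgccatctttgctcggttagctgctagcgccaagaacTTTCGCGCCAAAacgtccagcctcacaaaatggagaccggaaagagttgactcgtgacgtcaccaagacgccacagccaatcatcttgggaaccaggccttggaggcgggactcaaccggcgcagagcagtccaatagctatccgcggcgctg
Mcm7 has 1 match in this stretch (1 of its 2 annotated promoters is shown, picked for having more E2F matches), Mcm6 has 3 and Mcm5 has 2. In Mcm6 and Mcm5, 2 matches on opposite strands overlap each other. Of the 41 genes 35 had a promoter in the RefSeq table, and 13 of them (37.1%) held such a match between 250 bases before and 50 after the start, against 2.6% of all 27025 gene symbols in the table counted the same way, and 2.26% of its 32851 promoters of that length. A match is a description of the letters and not a site shown to be bound.

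Mcm7 had 9.39, 9.35 and 9.34 in unstimulated cKO against 8.78, 8.77 and 8.95 in fresh cKO cells. Control cells had 9.39, 9.47 and 9.47 unstimulated against 8.96, 9.06 and 8.85 fresh. No unstimulated library came down to the fresh range (31.9% of all tested genes in cKO and 48.6% in control did not overlap). Mcm7 rose by 0.53 in cKO and 0.49 in control (SE 0.08 each, limma adjusted p = 0.000181 and 0.00033). Mcm6 rose by 0.38 in cKO, to 9.74 ± 0.08 against 9.35 ± 0.15 in fresh cells (SD, n = 3, limma adjusted p = 0.00298). In control cells it had 9.48 ± 0.02 unstimulated and 9.37 ± 0.05 fresh, a difference of 0.12 that did not pass.

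Mcm4 fell by a small amount, 0.25 in cKO and 0.24 in control (SE 0.07 each, adjusted p = 0.0179 and 0.016). It averaged 9.58 ± 0.04 in unstimulated and 9.83 ± 0.12 in fresh cKO cells, and 9.59 ± 0.03 in unstimulated and 9.83 ± 0.03 in fresh control cells. Its cKO call was lost without unstimulated replicate 1 or 3 or fresh replicate 2 (-0.24 to -0.19, adjusted p 0.0556 to 0.0774), and its control call without replicate 1 of either group (-0.23 in both, adjusted p 0.052 to 0.0575). With quantile normalization the cKO difference was -0.15 and did not pass. Mcm2, Mcm3, Mcm5 and the loading factors Cdc6 and Cdt1 did not pass in either genotype, and Cdt1 had the widest cKO difference among them, -0.65.

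Pcna, for the sliding clamp of DNA polymerases, and Mki67, for the Ki-67 protein used to mark cycling cells, are the best known proliferation genes of the list, and their promoters are shown beside those of the MCM genes for that reason. Capitals mark TTTGAA, the core letters of the cell cycle genes homology region (CHR) found at many genes of late cell cycle phases, and the E2F letters given above, on either strand.
Pcna, chr2:132253181-132253430, minus strand: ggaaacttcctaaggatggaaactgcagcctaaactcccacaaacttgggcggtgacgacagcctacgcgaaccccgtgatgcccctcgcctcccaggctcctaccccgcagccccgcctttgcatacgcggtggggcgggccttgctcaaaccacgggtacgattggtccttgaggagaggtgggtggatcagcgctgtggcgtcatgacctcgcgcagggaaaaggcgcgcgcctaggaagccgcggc
Mki67, chr7:135716380-135716629, minus strand: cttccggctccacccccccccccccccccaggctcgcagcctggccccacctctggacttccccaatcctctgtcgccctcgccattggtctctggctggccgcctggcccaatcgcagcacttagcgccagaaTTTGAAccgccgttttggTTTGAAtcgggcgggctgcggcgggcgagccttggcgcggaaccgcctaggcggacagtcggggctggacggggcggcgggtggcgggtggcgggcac
The Pcna stretch holds 0 matches to either motif, which says only that these letters are not in this window, and the Mki67 stretch holds 2 to TTTGAA. These letters were found for 11 of the 35 genes (31.4%), against 20.2% of all gene symbols and 17.9% of all promoters.

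Pcna had the lowest p of the 39 genes in cKO. Its values were 9.95, 10.04 and 9.93 in unstimulated cKO against 11.07, 11.21 and 10.60 in fresh cKO cells. Control cells had 9.79, 9.83 and 9.86 unstimulated against 10.87, 10.52 and 10.67 fresh. The unstimulated libraries lay close together and all below the fresh ones (31.9% of all tested genes in cKO and 48.6% in control did not overlap). Pcna fell by 0.99 in cKO (95% interval -1.25 to -0.73, adjusted p = 3.32e-05) and by 0.86 in control (-1.12 to -0.60, adjusted p = 0.000104), to 0.504 and 0.55 times the fresh level. Tyms, for thymidylate synthase, fell by 0.49 in cKO, to 5.48 ± 0.08 against 5.97 ± 0.20 in fresh cells (SD, n = 3, limma adjusted p = 0.0103). That call was lost without fresh cKO replicate 2 (-0.38, adjusted p = 0.051), and the control difference was -0.17. Rrm1 and Rrm2, for the subunits of ribonucleotide reductase, and Pola1, for the polymerase that starts new strands, did not pass.

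Mki67 had 6.12, 6.01 and 6.03 in unstimulated cKO against 7.05, 6.58 and 6.09 in fresh cKO cells, where the lowest fresh library overlapped the cultured ones. In control cells the values were 6.00, 5.86 and 5.86 unstimulated against 6.33, 6.36 and 6.44 fresh, without overlap (as for 48.6% of all tested genes). It fell by 0.52 in cKO and 0.47 in control (adjusted p = 0.0333 and 0.0443). Both calls were weak: the cKO call was lost without any of fresh replicate 1 or 2 or the 3 unstimulated libraries (-0.56 to -0.28, adjusted p 0.0634 to 0.159), the smallest difference being that without fresh replicate 1, and the control call was lost without each of the 6 libraries (-0.52 to -0.44, adjusted p 0.0595 to 0.114). Aurka, for a kinase of the mitotic spindle, fell by 0.50 in control (3.97 ± 0.08 unstimulated against 4.47 ± 0.21 fresh, SD, n = 3, limma adjusted p = 0.019), which was lost without replicate 3 of either group (-0.46 to -0.38, adjusted p 0.0654 to 0.0893). Its cKO difference was -0.25. Top2a, the topoisomerase that untangles chromosomes, differed by -0.44 and -0.40 and did not pass, with SEs wider than those of most members. Plk1 lay between 3.26 and 4.17 in all libraries.

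**Figure D3:**
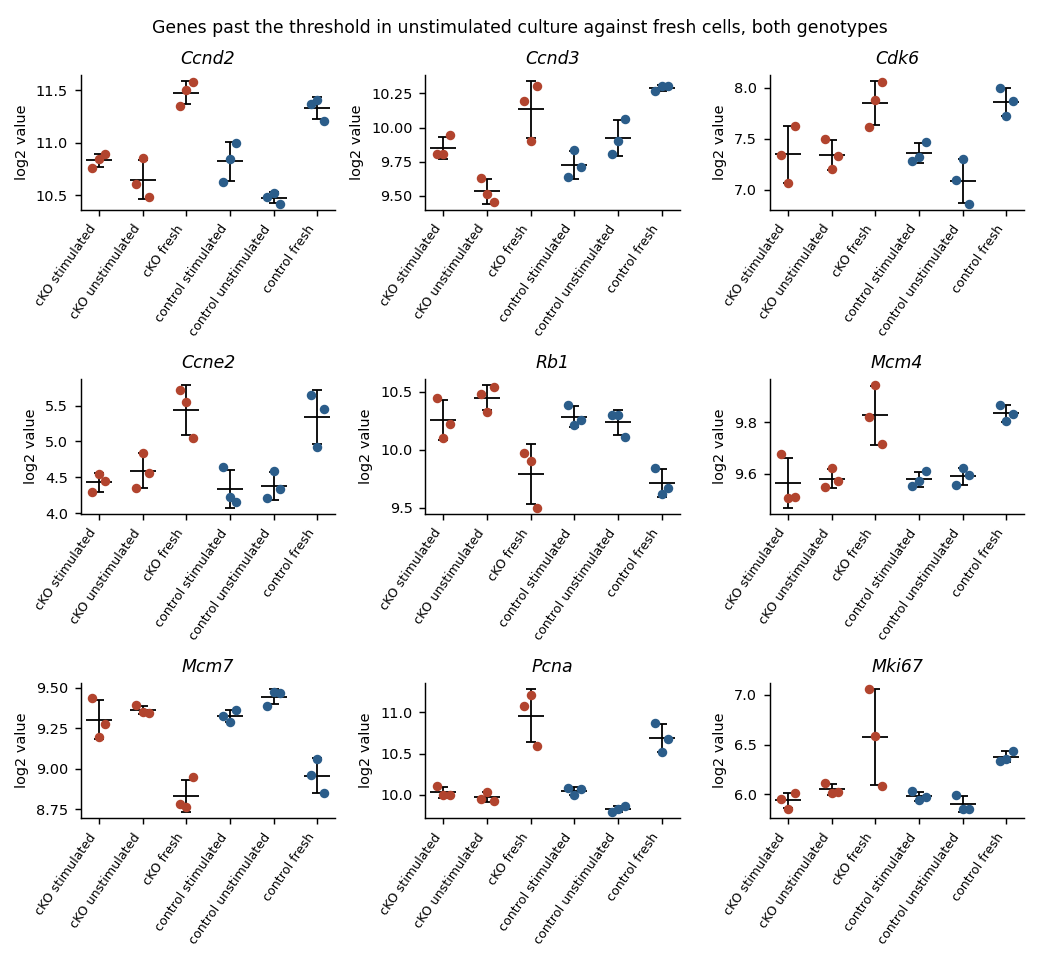
Log2 values per library (points), with mean (long bar) and SD (error bar), of the 9 genes past the threshold in unstimulated culture against fresh cells in both genotypes, n = 3 a group. Fresh cells are highest for 7 genes and lowest for Rb1 and Mcm7, and the y axes do not start at 0.

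Other transcripts moved with culture as well. Cd44, which is low on the surface of sorted cells, fell by 1.16 in cKO and 1.35 in control, and Cd69, an early activation marker, by 1.83 and 1.94. The myeloid gene Itgam fell by 0.81 and 0.92. Not all genes of other cell types were lower in culture. The B cell gene Cd79a averaged 4.16 in unstimulated and 3.83 in fresh cKO cells, and 4.76 in unstimulated and 3.94 in fresh control cells. The 5 memory or effector T cell markers, of which Cd44 and Ly6c2 reached the minimum level, summed on the linear scale to 182 to 205 in unstimulated and 333 to 406 in fresh cKO libraries, and to 160 to 208 in unstimulated and 362 to 451 in fresh control libraries. Cd44 alone made up most of these sums. Ly6c2 averaged 5.34 in unstimulated and 5.53 in fresh cKO cells, and 5.11 in unstimulated and 5.48 in fresh control cells. The regulatory T cell pair Foxp3 and Ikzf2 summed to 163 to 191 in unstimulated and 193 to 250 in fresh cKO libraries, and to 125 to 156 in unstimulated and 179 to 184 in fresh control libraries. The defining markers Lyz2 and Csf1r of myeloid cells averaged 2.75 and -0.28 over the 18 libraries. The part of such cells in the lower Pcna and Mki67 levels was not tested.

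Stimulated culture was also set against fresh cells, a comparison added after the data had been seen, which shares its fresh libraries with the one above. In cKO cells 3 genes rose and 13 fell, 16 of 39 where 30.3% of all tested genes passed (14.5% higher, 15.7% lower). In control cells 3 rose and 9 fell, 12 of 39 where 18.8% passed (9.58% higher, 9.26% lower). At an unadjusted p under 0.05 there were 19 and 15, with 43.2% and 31.0% of all genes. In all 4 comparisons with fresh cells the same 8 genes passed, Rb1 and Mcm7 higher and Ccnd2, Ccnd3, Cdk6, Ccne2, Mcm4 and Pcna lower. The matching share of all tested genes was not counted here either. Pcna had 10.03 ± 0.07 in stimulated and 10.96 ± 0.32 in fresh cKO cells, and 10.05 ± 0.05 in stimulated and 10.69 ± 0.17 in fresh control cells (SD, n = 3), falls of 0.93 and 0.64. Stimulated cells were thus below the fresh level as well. Of the 8 genes, 5 kept their call without each library in all 4 comparisons (Ccnd2, Ccne2, Rb1, Mcm7, Pcna), and calls of Ccnd3, Cdk6 and Mcm4 were lost without single libraries. The cKO count fell to 10 without stimulated cKO replicate 2 (18.7% of all genes), and the control count to 7 without stimulated control replicate 1 (15.2%).

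Cdkn2d fell in stimulated culture in both genotypes, by 0.73 in cKO and 0.89 in control (adjusted p = 0.0161 and 0.0069). The cKO difference was -0.45 without fresh cKO replicate 3. Cks2, Tyms, Pola1 and Cdkn1b fell in stimulated cKO cells by 0.72, 0.72, 0.57 and 0.26, and none of these 4 passed in control, at -0.25, -0.09, -0.18 and -0.11. The Pola1 call was lost without fresh cKO replicate 1 or 2 or stimulated cKO replicate 2 (-0.56 to -0.44, adjusted p 0.0543 to 0.0967), and the Cdkn1b call without fresh cKO replicate 2 or stimulated cKO replicate 2 or 3 (-0.25 to -0.20, adjusted p 0.0987 to 0.154). Mki67 fell by 0.63 in cKO, and by 0.40 without fresh cKO replicate 1, and its -0.39 in control did not pass. Whether these differences differ between the genotypes was not tested for stimulated against fresh cells.

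Cdk4, E2f2 and Cdc25a, like Pola1 and Cdkn1b above, passed in stimulated and not in unstimulated culture against fresh cells. Cdk4 rose by 0.59 in cKO (9.27 ± 0.10 in stimulated against 8.68 ± 0.44 in fresh cells, SD, n = 3, limma adjusted p = 0.0352), but by 0.21 once the GC slopes entered the fit, and the call was lost without fresh replicate 1 or 2 or stimulated replicate 2 or 3 (0.39 to 0.60, adjusted p 0.0819 to 0.191). E2f2, an activating E2F, fell by 0.81 in control (5.74 ± 0.42 in stimulated against 6.56 ± 0.25 in fresh cells, limma adjusted p = 0.0194), lost without fresh replicate 1 or 2 or stimulated replicate 1 or 3 (-0.78 to -0.62, adjusted p 0.0602 to 0.0959). Cdc25a fell by 0.32 in cKO and 0.33 in control. Both Cdc25a calls depended on single libraries, being lost without fresh replicate 1 or stimulated replicate 3 in cKO (-0.25 to -0.24) and without fresh replicate 2 or 3 or stimulated replicate 1 or 2 in control (-0.34 to -0.29). None of Cdk4, E2f2, Cdc25a, Pola1 and Cdkn1b passed between the 2 kinds of culture.

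The study's stimulation compared cells with and without antibodies after the same 8 h. None of the 39 genes passed in either genotype by limma: 0 in cKO, where 0.285% of all tested genes did (31 genes, 0.276% higher and 0.00919% lower), and 0 in control, where 0.349% did (38 genes, 0.313% higher and 0.0368% lower). At an unadjusted p under 0.05 there were 10 in cKO, where 23.1% of all genes were, and 5 in control, where 11.3% were. With only the groups compared in the fit 6 members passed in cKO, where 21.6% of all genes did. Differences ran from -0.45 to 0.52 in cKO and from -0.56 to 0.35 in control, with SEs of 0.07 to 0.28, and their medians were -0.02 and -0.07, against 0.01 and -0.02 for all tested genes.

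Of 6 genes that receptor signals are known to induce, 1 passed the same test in cKO (Egr2) and 2 in control (Egr2, Il2ra). Egr2, an early transcription factor gene, averaged 8.43 ± 0.28 in stimulated and 7.05 ± 0.08 in unstimulated cKO cells, and 8.30 ± 0.30 in stimulated and 7.16 ± 0.39 in unstimulated control cells (SD, n = 3). It rose by 1.38 in cKO and by 1.14 in control (limma adjusted p = 0.00304 and 0.0188). Il2ra, for the IL-2 receptor chain CD25, rose by 1.20 in control (limma adjusted p = 0.0309), and its 1.09 in cKO did not pass. Both control calls depended on single libraries: Egr2 was lost without any of unstimulated replicates 1 and 2 and stimulated replicates 2 and 3 (0.94 to 1.15), and Il2ra was lost without any of the 3 unstimulated libraries and stimulated replicates 2 and 3 (0.92 to 1.28). Nr4a1 differed by 1.73 in cKO and 0.59 in control, Myc by 0.66 and 0.06, and Cd69 by 0.36 and 0.51, and none of these passed. Il2 stayed at 1.72 to 2.56 in all 18 libraries, below the minimum level.

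Ccnd2 is the D-type cyclin that receptor signals are known to induce early in T cells. It had 10.76, 10.84 and 10.89 in stimulated against 10.61, 10.85 and 10.48 in unstimulated cKO cells, and 10.62, 10.84 and 10.999 in stimulated against 10.48, 10.52 and 10.42 in unstimulated control cells. The groups overlapped in cKO and not in control, where 20.5% of all tested genes did not. The differences were 0.18 in cKO (95% interval -0.04 to 0.40, adjusted p = 0.266) and 0.35 in control (0.13 to 0.57, adjusted p = 0.194), and neither passed. With GC slope fitted the control difference was 0.40 and passed (adjusted p = 0.0226), the 1 member that did in either genotype. By that fit 2.95% of all tested genes passed in control and 0.662% in cKO. Ccnd3 differed by 0.32 in cKO (0.11 to 0.53) and by -0.20 in control (-0.41 to 0.01).

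Cdk4 had 9.18, 9.38 and 9.25 in stimulated against 8.65, 8.96 and 8.63 in unstimulated cKO cells, without overlap (as for 42.3% of all tested genes), a difference of 0.52 (adjusted p = 0.198). In control cells it had 8.77, 9.41 and 9.14 in stimulated against 9.05, 9.22 and 9.36 in unstimulated cells, a difference of -0.10. Mcm2, a helicase subunit, differed by 0.51 in cKO and -0.20 in control, Cdt1 by 0.50 and -0.42, and Cdkn2d by 0.38 and -0.34. Rbl1 had the lowest difference in cKO, -0.45, and E2f2 the lowest in control, -0.56 (adjusted p = 0.374). Pcna differed by 0.06 in cKO (-0.20 to 0.32) and by 0.22 in control (-0.04 to 0.48). Mki67 averaged 5.94 ± 0.08 in stimulated and 6.05 ± 0.06 in unstimulated cKO cells, and 5.98 ± 0.04 in stimulated and 5.91 ± 0.08 in unstimulated control cells.

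The 2 genotypes shared no library in this comparison, and their stimulation differences had an r of -0.31 over the 39 genes, with -0.46 over all tested genes, and the same sign for 15. The differences ran with GC content, at r = 0.54 in cKO and -0.53 in control over the 39 genes, and 0.66 and -0.60 over all 10863 genes with a GC content. With GC slope in the fit, the cKO differences of Cdk4, Mcm2 and Cdt1 were 0.13, 0.15 and -0.03. The slopes were computed from the same expression values, and in cKO they did not overlap between stimulated and unstimulated libraries. The covariate cannot separate slope from condition there, and the part of the GC slope in these differences was not tested.

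Genotype was compared within each condition and over all 3. By limma 0 of the 39 genes passed in stimulated culture (0.0% of all tested genes), 0 in unstimulated culture (0.0%), 0 in fresh cells (0.00919%, 1 gene) and 0 in the average over conditions (0.0184%, 2 genes). At an unadjusted p under 0.05 there were 1, 10, 3 and 3 members, where 1.47%, 33.2%, 3.94% and 8.28% of all tested genes were. With only the groups compared in the fit 10 members passed in unstimulated culture, where 34.4% of all genes did. The largest differences were in unstimulated culture and were lower in cKO cells.

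Cdt1, which loads the MCM helicase, had 6.95, 7.21 and 7.14 in unstimulated cKO against 7.45, 7.86 and 8.02 in unstimulated control cells, a difference of -0.68 (95% interval -1.25 to -0.11, adjusted p = 0.11). Cdkn2d had 6.62, 6.80 and 6.58 in cKO against 7.08, 7.38 and 7.43 in control cells, a difference of -0.63 (adjusted p = 0.103). Mcm2 had 8.34, 8.51 and 8.10 in cKO against 8.74, 8.94 and 9.03 in control cells, a difference of -0.59 (adjusted p = 0.103). These 3 genes and Cdk4, whose difference was -0.46, did not overlap between the genotypes, as was so for 52.1% of all tested genes, and none passed. Rbl1 had the highest difference, 0.34.

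These differences followed the GC content of the genes. Over the 39 genes r was 0.39 in stimulated culture, -0.67 in unstimulated culture and -0.54 in fresh cells, with 0.55, -0.72 and -0.57 over all genes with a GC content. This is a description over genes that share the same libraries. With GC slope fitted the unstimulated differences of Cdt1, Cdkn2d, Mcm2, Cdk4 and Rbl1 were 0.0015, -0.10, -0.13, 0.05 and -0.02. The slopes did not overlap between the genotypes in unstimulated culture, so this fit cannot tell slope and genotype apart.

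**Figure D4:**
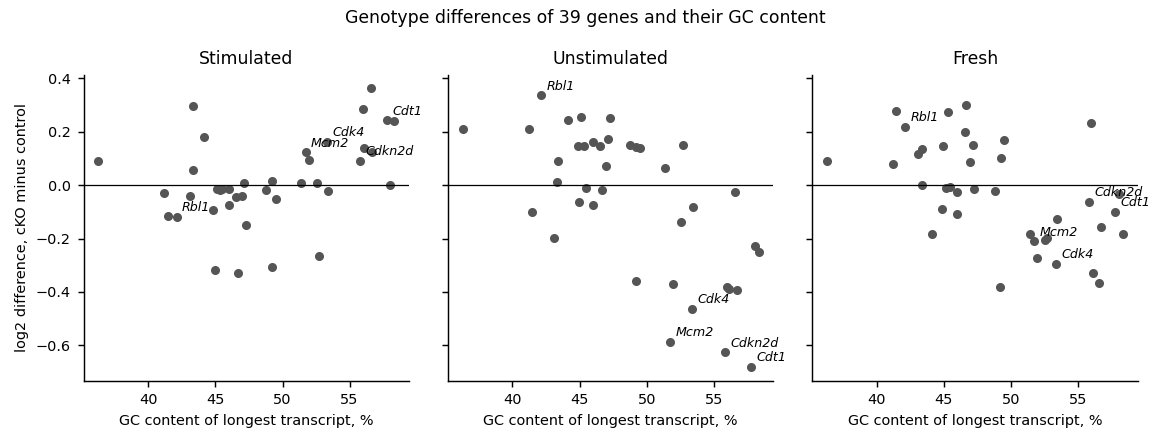
Log2 difference between cKO and control (y) against the GC content of the longest transcript in percent (x) for the 39 tested genes, in stimulated, unstimulated and fresh cells. In unstimulated and fresh cells the genes of high GC content lie lower, with r = -0.67 and -0.54, and in stimulated cells higher, with r = 0.39.

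In fresh cells 1 library decided the count. Without fresh cKO replicate 3, whose GC slope stood apart, 4 members passed, where 1193 of all 10877 genes did: Pcna at 0.45 (adjusted p = 0.0343) and Mki67 at 0.44 (0.045) were higher, and E2f2 at -0.66 (0.0481) and E2f4 at -0.61 (0.0418) were lower in cKO. With all libraries these differences were 0.27, 0.20, -0.37 and -0.33. Pcna had 11.07, 11.21 and 10.60 in fresh cKO against 10.87, 10.52 and 10.67 in fresh control cells. Without the same library 5 members passed in the average over conditions, where 14.8% of all genes did: Pcna at 0.19 was higher, and Mcm2 at -0.29, E2f4 at -0.29, Cdkn2d at -0.29 and Ccnd3 at -0.17 were lower in cKO. In neither comparison was the share of members above that of all genes. The Mki67 difference in fresh cells became negative when fresh cKO replicate 1 was left out instead. GC content was 45.3% for Pcna, 46.6% for Mki67, 56.6% for E2f2 and 56.1% for E2f4, and its part in these calls was not tested.

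Whether the response to stimulation or culture differed between genotypes was tested as an interaction. By limma 0 members passed for stimulation, where 0.00919% of all tested genes did (1 gene), and 0 for culture, where 0.0% did. At an unadjusted p under 0.05 there were 10 and 5 members, with 28.0% and 5.01% of all genes. The largest stimulation interactions, cKO minus control, were 0.92 for Cdt1 (95% interval 0.12 to 1.72), 0.72 for Cdkn2d (0.09 to 1.35) and 0.71 for Mcm2 (0.17 to 1.25), each with an adjusted p of 0.166. With GC slope in the fit they were 0.03, 0.03 and 0.11, under the limit given above for that covariate. The culture interaction of Cdkn2d, whose call was reached in cKO cells and not in control cells, was -0.56 (-1.19 to 0.06, adjusted p = 0.843).

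Other genes of the same pathway were taken from 4 lists. Among 21 tested genes of origin recognition and firing, 0 rose and 3 fell in unstimulated against fresh cKO cells, and 1 rose and 5 fell in control. These were 14.3% and 28.6% of the list, against 22.1% and 29.0% of all tested genes, so that the list lay at or below that share. Clspn, a checkpoint mediator at the fork, fell by 2.05 and 2.13, Dbf4, the activator of the origin-firing kinase, by 0.54 and 0.73, and Orc6, of the origin recognition complex, by 0.53 and 0.63. Clspn averaged 3.74 ± 0.22 in unstimulated and 5.79 ± 0.27 in fresh cKO cells (SD, n = 3). Control cells had 3.73 ± 0.49 unstimulated and 5.87 ± 0.28 fresh, so that its unstimulated values lay near the minimum level of the test. The Orc6 call in cKO was lost without replicate 1 or 2 of either group (-0.53 to -0.44). The median differences of that list were -0.02 in cKO and -0.10 in control. Of 32 tested genes of the replication fork, nucleotides and chromatin assembly, 4 rose and 2 fell in cKO (18.8%), and 5 rose and 5 fell in control (31.2%), near the shares of all genes. Dck, a kinase of nucleotide salvage, rose by 0.67 and 0.62, and Pole2, of DNA polymerase epsilon, fell by 0.60 and 0.63.

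Of 22 tested other regulators of G1 and E2F, 3 rose and 0 fell in cKO (13.6%), and 3 rose and 1 fell in control (18.2%), both below the 22.1% and 29.0% of all tested genes. Cdkn1a, for the CDK inhibitor p21, rose by 0.97 in cKO and 1.00 in control (limma adjusted p = 0.000429 and 0.000291), and Tfdp2, a partner of E2F, rose by 0.49 and 0.37. Of 20 tested mitotic genes 2 rose and 0 fell in each genotype, again a smaller share than of all genes. They included Stmn1, for the microtubule destabilizer stathmin, which rose by 1.02 and 1.07. By stimulation 0 genes of the 4 lists passed in either genotype by limma, and at an unadjusted p under 0.05 there were 2, 4, 4 and 2 in cKO and 2, 2, 1 and 4 in control, in the order given, where 23.1% and 11.3% of all tested genes were.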

How the data were processed

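RNA of 18 libraries was sequenced from 10 ng each with the TruSeq version 2 kit, which does not mark strand, as 75 bp single-end reads, per the labels' protocols. The submitters' processing notes name HISAT2 2.1.0, CASAVA 1.8, DESeq2, Partek 6.6 and SAMtools 1.4, and as build mm10, without saying which did what. The authors deposited 1 table of normalized log2 values for 15137 genes; no source used here gives the transformation, and the depth is unknown. Without strand, overlapping and antisense genes cannot be told apart.

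Tests covered genes that reached 10 on the linear scale in 3 libraries (10877, 71.9%). The deposited log2 values were fitted with limma 3.58.1 (R 4.3.3) as 6 group means with a trended prior, and p-values were adjusted by Benjamini and Hochberg over all tested genes, with a threshold of 0.05. Of 12 comparisons 10 were planned, and those of stimulated culture with fresh cells were added after the data had been seen. A self-test on simulated data was run first. Tables and figures were made with Python 3.11.15, pandas 2.3.3, numpy 2.4.6, scipy 1.17.1 and matplotlib 3.10.9. Gene coordinates, lengths and GC content came from GENCODE annotation of GRCm38, and promoters from RefSeq. Motif letters were searched on both strands.

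Members and lists were chosen with earlier results of these data known. All 41 members were open to naming. Values of every library were to be given for up to 3 members a role group called by stimulation, and for members called by genotype; as there were none, the members shown by library in the culture comparisons were chosen after their values were seen. Up to 3 genes of smallest p were named for each other pathway list. The alternatives were another pseudocount, filter, scaling, prior, library weights, a replicate block, a GC slope covariate, and leaving out each library.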

Additional observations from a re-analysis of the deposited data

How the results depend on the processing

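Over the named members, 766 recomputed values of called differences stayed past the threshold in the same direction and 110 were no longer past it. Counts of members called moved as follows, with the share of all tested genes called by the same fit in parentheses. With only the groups compared they were 6 (21.6%) for stimulation in cKO, 6 (7.46%) and 4 (6.92%) for unstimulated and stimulated against fresh cKO cells, 10 (34.4%) for genotype in unstimulated culture and 6 (21.8%) for the stimulation interaction. With library weights, whose iteration stopped before it converged, they were 19 (56.7%) for stimulation in cKO and 19 (57.9%) in control, 21 (59.2%) and 23 (48.9%) for unstimulated and stimulated against fresh control cells, 20 (67.0%), 5 (21.6%) and 10 (32.8%) for genotype in unstimulated culture, in stimulated culture and on average, and 26 (65.3%) for the stimulation interaction. With the GC slope covariate the count was 1 (2.95%) for stimulation in control and 17 (42.9%) for unstimulated against fresh control cells, and with the replicate block and GC slope together 1 (2.22%) and 16 (40.6%). The replicate block alone gave 5 (8.15%) for genotype in unstimulated culture. Libraries of 1 run of numbers deviated together only in part (r -0.68 to 0.69, median 0.13, and 11 of 18 libraries closest to their own run), so the numbers were not taken as pairs.

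With 1 library left out, counts ran from 10 to 15 and from 8 to 10 for unstimulated against fresh cKO and control cells, from 10 to 18 and from 7 to 11 for stimulated against fresh cells, from 0 to 4 for genotype in fresh cells and from 0 to 5 on average, and were 0 in the other comparisons. Signs reversed for stimulation in cKO with the GC slope for Cdkn2d (-0.0302, and -0.0200 with the replicate block too) and Cdt1 (-0.0306). They reversed for stimulation in control for Cdk4 (0.17, 0.18 with the replicate block too, and with 1 library left out -0.25 to 0.0660, the highest without control stimulated replicate 1) and Mcm2 (0.0432 and 0.0694). For genotype they reversed in unstimulated culture for Cdk4 (0.0477 and 0.0650), Rbl1 (-0.0249) and Cdt1 (0.0015), and in fresh cells for Mki67 without cKO fresh replicate 1 (-0.0411, with 0.44 without replicate 3). None of these had passed the threshold, and the cause was not tested. Another scaling moved the median of all genes by over 0.1 in 1 case, the stimulation interaction under quantile normalization (-0.12).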
